A study of Mus musculus with 4 samples.

Results

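The genes described here encode the machinery that copies nuclear DNA: 50 genes of the 50600 in each count file, taken from a given list of origin, helicase, polymerase and fork genes and matched to mouse gene symbols. All 50 were found, on 16 chromosomes. The RNA was that of primary T cells taken from mice of strain C57BL/6NJ. The labels give 1 group only, with 4 biological replicates, no treatment, no time point and no control. The linked protocol is named for differentiation of CD4+ T cells, and the file headers call the libraries Th0, activated and 48 h, Th0 being helper T cells that were activated with no polarizing cytokine. Animal age and sex are not recorded in the labels, all 4 libraries carry the same donor identifier, and nothing says whether they came from separate animals, so every spread given here is a spread between these libraries and may be technical. The comparisons that such a design holds are the level of each gene against fixed thresholds and against the other genes, the balance of subunits within a complex, and the spread between replicates.

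In eukaryotes, the origin recognition complex marks origins, and Cdc6 and Cdt1 then load the MCM2-7 helicase there while the cell is in G1. In S phase the kinase Cdc7 with Dbf4, together with Cdc45, the GINS complex and Mcm10, turns the loaded helicase into an active one. At the fork, primase makes short primers, and polymerases alpha, delta and epsilon make DNA behind the helicase. RPA covers the single strands, and the PCNA clamp holds the polymerases. Resting T cells do not replicate DNA, and activated T cells enter rapid division.

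The 4 libraries held 56904311, 45110199, 127755788 and 53379135 counted read pairs in replicates 1 to 4, a 2.83-fold range. The smallest count of any replication gene in any library was 868, so counting error was small throughout. All 10 T cell markers, Cd4 and Cd3e among them, lay above 1 CPM (counts per 1000000 counted read pairs), and together they summed to between 4274 and 4368 CPM per library. Of the markers of other cells, Cd8b1 (CD8 T cells), Ebf1 (B cells), Adgre1 (myeloid cells), Eomes (NK cells) and Epcam (epithelial cells) lay above 1 CPM, and none of the 3 erythroid genes did. The 6 B cell markers summed to between 3.30 and 4.97 CPM, and the 6 myeloid markers to between 2.37 and 3.15 CPM with Lyz2 at 0. The CD8 pair summed to between 8.86 and 10.7 CPM, with means of 9.62 CPM for Cd8b1 and 0.279 CPM for Cd8a. The 3 NK genes summed to between 1.79 and 2.64 CPM, and the 3 epithelial and stromal genes to between 1.73 and 2.55 CPM. The part of other cells in the results was not tested.

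All 50 replication genes were transcribed in all 4 libraries. Each lay above 1 CPM and above 10 TPM (counts divided by gene length, scaled to sum to 1000000 in each library) in limma's one-sided test with Benjamini-Hochberg adjustment over 23365 genes, with adjusted p-values of at most 3.9e-14 and 8.8e-07. Of all genes tested, 47.4% passed at 1 CPM and 35.9% at 10 TPM, and 84.5% and 63.4% of the 13279 left by a filter on low counts. At 100 TPM, 24 of the 50 genes lay above, 24 lay below, and Top1 and Pole3 could not be placed, whereas 8.68% of all genes lay above (15.4% after that filter). The median level of the replication genes was 107 TPM, against 14.2 TPM for the 15076 protein-coding genes with a count. All 50 exceeded that protein-coding median, 38 were in the top 25% of protein-coding genes and 20 in the top 10%. Together they made up 0.771% ± 0.0026 of all TPM (SD, n = 4). In bulk RNA, a larger share of dividing cells and more RNA per cell cannot be told apart.

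**Figure D1:**
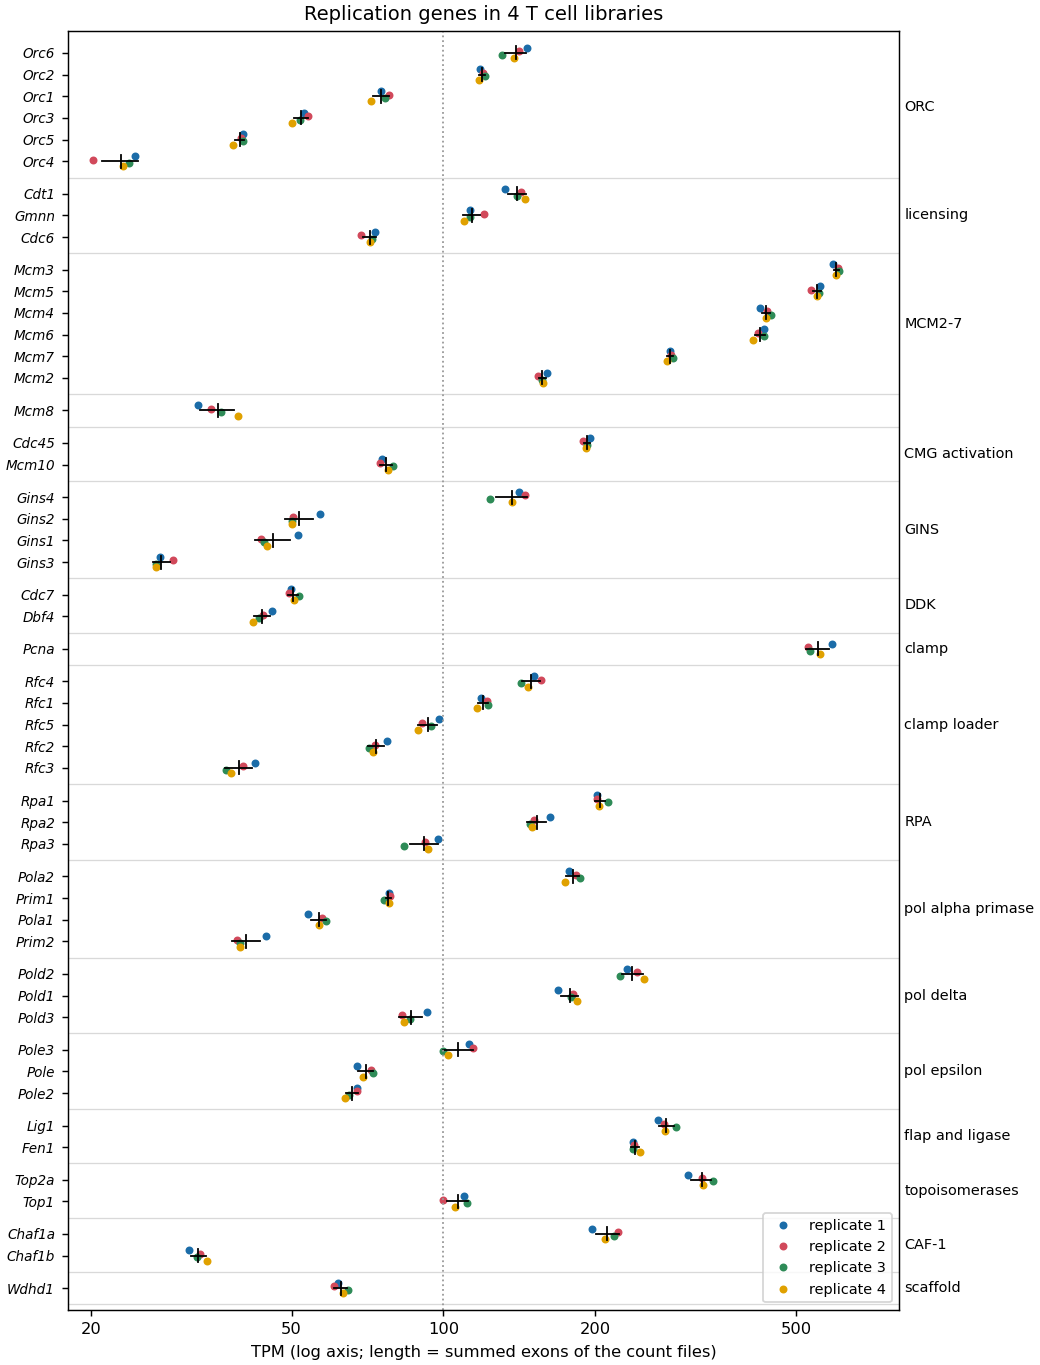
Level of each replication gene in TPM (log axis) in the 4 libraries, one coloured point per replicate, with the mean (vertical bar) and SD (horizontal line, n = 4), grouped by complex or role; the dotted line is at 100 TPM. Mcm3, Pcna and Mcm5 lie farthest right, Orc4 at 22.9 TPM and Gins3 at 27.6 TPM lie at the left, and the 4 points of a gene lie close together beside the 26.2-fold range between genes.

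By summed level the helicase genes were the highest group, although Pcna alone exceeded Mcm2, Mcm4, Mcm6 and Mcm7 in every library. The 6 genes of the MCM2-7 ring summed to 2448, 2435, 2482 and 2433 TPM in replicates 1 to 4, which was 31.8% ± 0.25 of the TPM of all 50 genes (SD, n = 4). Mcm3, the highest of the 50 on this scale, was at 592, 605, 607 and 599 TPM. Mcm5 was at 558, 536, 555 and 551 TPM. Both genes were nearly level across libraries, and Mcm3 was the higher in all 4. Mcm4 followed at 425, 437, 446 and 437 TPM, and Mcm6 at 432, 421, 432 and 412 TPM. These genes could not be ordered on this scale, since Mcm6 was the higher in replicate 1 and Mcm4 in the other 3. Mcm7 averaged 282 ± 3.5 TPM and Mcm2 157 ± 2.6 TPM (SD, n = 4), and all 6 lay above 100 TPM. A near copy of Mcm7, Gm5487, matches 72.8% of its transcript at up to 97.7% identity, so the level of Mcm7 is uncertain.

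The ring holds 1 copy of each subunit, yet the transcripts were not equal. Mcm2 was at 160, 154, 157 and 157 TPM, far below Mcm3 in each library, and the log2 difference of Mcm2 minus Mcm3 was -1.94 ± 0.039 (SD, n = 4). Mcm3 was 3.83-fold above Mcm2. The size of this gap depended on the length given to each gene. The count files use the summed length of all annotated exons, and with the length of the principal transcript instead, Mcm3 was at 516 TPM, Mcm6 at 472, Mcm5 at 451, Mcm4 at 303, Mcm7 at 292 and Mcm2 at 225 TPM. The ring then spanned 2.30-fold, Mcm2 was still the lowest and Mcm3 still the highest, and Mcm5 and Mcm6 changed places. Mcm6 then also lay above Mcm4 in all 4 libraries, by 1.56-fold. The TPM scale itself changes with the lengths of all genes, so Mcm4, with 3589 bases under both, fell from 436 to 303 TPM. Of the 15 pairs of ring subunits, 14 kept one order in all 4 libraries with a mean log2 difference beyond 2 SD, and 12 did so in the same direction under both lengths. With 4 libraries, an exact sign-flip permutation test on a pair cannot give a two-sided p below 1 in 8, so the orders are given as descriptions. Mcm8, an MCM relative that works in homologous recombination and is no part of the ring, was at 32.7, 34.7, 36.2 and 39.1 TPM. It lay below every ring gene in every library.

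Several of these genes carry letters of the E2F type near their start. E2F factors are the classic regulators of replication genes at the entry into S phase. Windows running from 250 bases before to 50 after the transcription start were taken from RefSeq (build GRCm38.p6) for 42 of the 50 genes, and 16 of the 42 (38.1%) held TTTCCCGC, TTTCGCGC, TTTGCCGC or TTTGGCGC on either strand. The share was 3.32% of 16469 protein-coding genes, 546 in all. The windows of replication genes were also richer in G and C, with a median of 62.3% against 57% for those of protein-coding genes, and the part this plays in the shares was not tested. The 16 genes were Mcm3, Mcm5, Mcm6, Mcm7, Mcm8, Orc1, Orc3, Cdc6, Cdt1, Gins3, Rfc3, Pola1, Pold1, Pold3, Pole2 and Lig1, with 22 matches, 15 of them within 100 bases of the start. Mcm7 has a further window, not shown, that held no match. The windows below are the matching ones of the 5 genes with at least 2 matches, and that of Pcna, the second highest gene by TPM, which held none. They are written 5′ to 3′ along the gene's own strand, with the matched letters in capitals (read on the opposite strand where the capitals are GCGGGAAA).
Mcm3 (chr1:20820263-20820562, minus strand): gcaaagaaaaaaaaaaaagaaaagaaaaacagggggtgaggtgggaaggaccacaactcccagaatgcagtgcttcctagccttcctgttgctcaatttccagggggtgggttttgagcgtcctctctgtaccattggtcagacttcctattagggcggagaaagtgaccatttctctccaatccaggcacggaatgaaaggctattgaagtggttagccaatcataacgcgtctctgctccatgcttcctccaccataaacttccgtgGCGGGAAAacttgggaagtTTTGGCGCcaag
Mcm5 (chr8:75109259-75109558, plus strand): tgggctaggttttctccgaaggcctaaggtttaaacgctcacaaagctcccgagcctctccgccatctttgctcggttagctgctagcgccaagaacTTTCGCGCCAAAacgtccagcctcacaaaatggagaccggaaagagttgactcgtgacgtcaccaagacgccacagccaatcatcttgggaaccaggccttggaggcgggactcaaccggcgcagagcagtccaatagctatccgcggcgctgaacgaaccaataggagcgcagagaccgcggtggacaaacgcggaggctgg
Mcm6 (chr1:128359656-128359955, minus strand): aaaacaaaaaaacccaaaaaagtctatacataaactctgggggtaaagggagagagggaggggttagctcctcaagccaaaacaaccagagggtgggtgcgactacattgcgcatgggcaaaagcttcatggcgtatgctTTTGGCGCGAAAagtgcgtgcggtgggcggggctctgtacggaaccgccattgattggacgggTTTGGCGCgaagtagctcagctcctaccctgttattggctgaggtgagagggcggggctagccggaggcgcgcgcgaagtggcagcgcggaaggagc
Mcm7 (chr5:138171834-138172133, minus strand): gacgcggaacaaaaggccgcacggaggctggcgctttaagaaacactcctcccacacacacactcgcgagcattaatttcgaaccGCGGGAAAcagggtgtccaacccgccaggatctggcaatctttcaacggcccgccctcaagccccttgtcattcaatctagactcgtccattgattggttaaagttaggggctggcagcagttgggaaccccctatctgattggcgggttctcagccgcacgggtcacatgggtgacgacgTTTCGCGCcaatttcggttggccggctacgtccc
Rfc3 (chr5:151651159-151651458, minus strand): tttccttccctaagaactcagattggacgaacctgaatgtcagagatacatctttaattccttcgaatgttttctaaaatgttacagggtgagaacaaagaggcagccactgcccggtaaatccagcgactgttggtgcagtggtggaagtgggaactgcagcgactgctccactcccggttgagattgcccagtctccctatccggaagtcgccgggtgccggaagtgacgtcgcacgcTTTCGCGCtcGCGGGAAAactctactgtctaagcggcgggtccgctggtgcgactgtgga
Pcna (chr2:132253131-132253430, minus strand): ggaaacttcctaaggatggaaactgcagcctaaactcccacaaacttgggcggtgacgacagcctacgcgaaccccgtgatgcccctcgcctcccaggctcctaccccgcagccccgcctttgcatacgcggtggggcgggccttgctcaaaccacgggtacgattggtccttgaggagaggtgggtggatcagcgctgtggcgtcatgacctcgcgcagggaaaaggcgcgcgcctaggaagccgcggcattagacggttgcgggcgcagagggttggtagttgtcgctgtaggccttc

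In Mcm6 and Mcm5 a pair of matches overlapped on opposite strands, forming the runs TTTGGCGCGAAA and TTTCGCGCCAAA, which begin 110 and 153 bases before the start. Mcm6 held a further match 47 bases before the start, and in Rfc3 the matches lay 10 bases before the start and at base 1. In Mcm3 both matches lay after the start, at bases 20 and 39. Of the MCM2-7 genes with a window, 4 of 5 held a match, and Mcm2 did not. The levels of genes with and without a match overlapped: the genes with one ran from 27.6 TPM (Gins3) to 601 TPM (Mcm3) with a median of 80.7 TPM, and the 26 without from 22.9 TPM (Orc4) to 552 TPM (Pcna) with a median of 120 TPM. Letters of the CHR type (TTTGAA), an element of genes that peak later in the cell cycle, were in 8 of 42 genes (19%), near the 17.6% of protein-coding genes, and Top2a, Cdc45 and Pold2 each held 2 in a window. The CCAAT box was in 57.1% of the replication genes and 42% of protein-coding genes. These are matches of letters in a window, and no binding was measured.

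**Figure D2:**
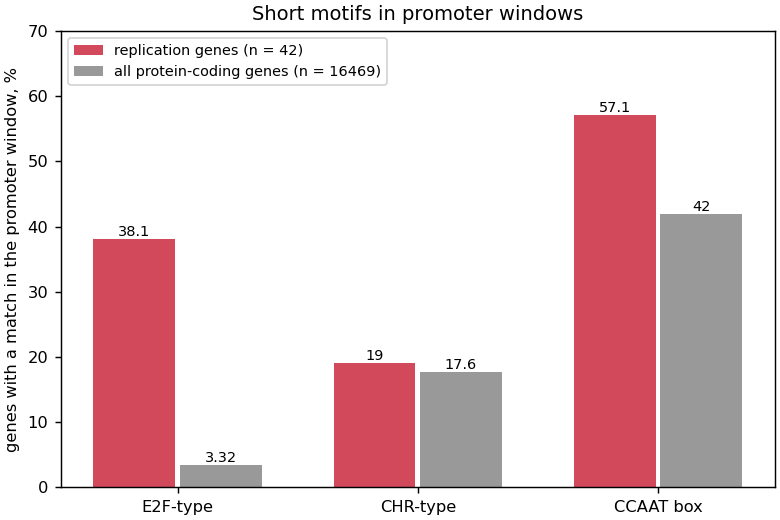
Share of genes (%, axis from 0) with at least 1 match of each motif in the promoter window, for the 42 replication genes with a window (red) and for 16469 protein-coding genes (grey). The E2F-type bars stand at 38.1% and 3.32%, while the CHR-type bars are nearly level at 19% and 17.6%.

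Among the origin genes, the 6 subunits of the origin recognition complex were unequal, with 2 above 100 TPM and 4 below. They summed to 448 ± 8.2 TPM (SD, n = 4). Orc6, the smallest subunit, was the highest at 146, 141, 131 and 138 TPM. Orc4 was the lowest of the complex and, on this scale, of all 50 genes, at 24.5, 20.3, 23.8 and 23.1 TPM. With principal transcript lengths, Gins3 at 20.6 TPM and Mcm8 at 28.95 TPM had lower means than Orc4 at 29.17 TPM. Orc6 lay above Orc4 in every library without overlap, with a log2 difference of Orc4 minus Orc6 of -2.60 ± 0.14 (SD, n = 4), and this 6.08-fold gap was as wide, at 6.35-fold, with principal transcript lengths. Between these ends, Orc2 averaged 119 ± 1.6 TPM, Orc1 75.4 ± 2.7, Orc3 52.2 ± 1.6 and Orc5 39.5 ± 0.80 TPM. Only Orc6 and Orc2 lay above 100 TPM, and for Orc2 that placement was lost with principal transcript lengths, at 89.6 TPM. The order of Orc1, Orc2, Orc3 and Orc5 depended on length: Orc1 lay above Orc3 and Orc5, and Orc2 above Orc3, with summed exons, and each of these 3 orders turned round with principal transcripts.

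The licensing factors were intermediate. Cdt1, which brings the helicase to origins, was at 133, 142, 140 and 145 TPM. Gmnn, which encodes geminin, the inhibitor of Cdt1, was at 113, 120, 113 and 110 TPM. Cdt1 was higher in all 4 libraries, by 0.30 ± 0.078 on the log2 scale (SD, n = 4), or 1.23-fold. Cdc6, the ATPase that loads the helicase together with Cdt1, averaged 71.4 ± 2.1 TPM (SD, n = 4). It lay below Cdt1 in all 4 libraries and below 100 TPM, although with principal transcript lengths it was at 101.3 TPM and could not be placed. Reads of Cdc6 may be shared with a near copy, Gm9430, which matches 59.5% of its transcript at up to 95.2% identity. The copy held 11 counts in all, against 30841 for Cdc6, but the recorded command sets no option to count reads that map to both, so the level of Cdc6 is uncertain.

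The genes that activate the helicase differed widely among themselves. Cdc45, a partner of the active helicase, was at 196, 189, 193 and 192 TPM, whereas Mcm10, needed to start unwinding, was at 75.4, 74.9, 79.4 and 77.8 TPM. The groups of values were far apart, and the log2 difference of Mcm10 minus Cdc45 was -1.32 ± 0.042 (SD, n = 4). By CPM, which ignores length, Mcm10 was the higher, at 172 against 126 CPM. The 4 GINS genes encode a complex with 1 copy of each subunit. Gins4 was at 142, 145, 124 and 137 TPM, and Gins3 at 27.4, 29.1, 27.0 and 26.9 TPM. Gins4 exceeded Gins3 by 4.95-fold, without overlap, and by 4.61-fold with principal transcript lengths. Gins1 and Gins2 lay between, at 46.0 ± 3.8 and 51.8 ± 3.3 TPM (SD, n = 4), and only Gins4 was above 100 TPM. With principal transcript lengths for all genes it lost that placement, at 94.9 TPM. Its own length was 1349 bases under both, so this fall came from the rescaling of TPM alone. Most exon bases of Gins2 (67.3%) are overlapped by Gse1 on the opposite strand, and the counting was set to use strand.

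Cdc7, the kinase that fires origins, was at 49.8, 49.3, 51.8 and 50.6 TPM, and its activator Dbf4 at 45.7, 44.0, 43.1 and 42.0 TPM. Cdc7 was the higher in every library by 1.15-fold. This order turned round with principal transcript lengths, at 46.7 TPM for Cdc7 and 110 TPM for Dbf4, so the balance of the kinase and its activator cannot be given from these counts.

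**Figure D3:**
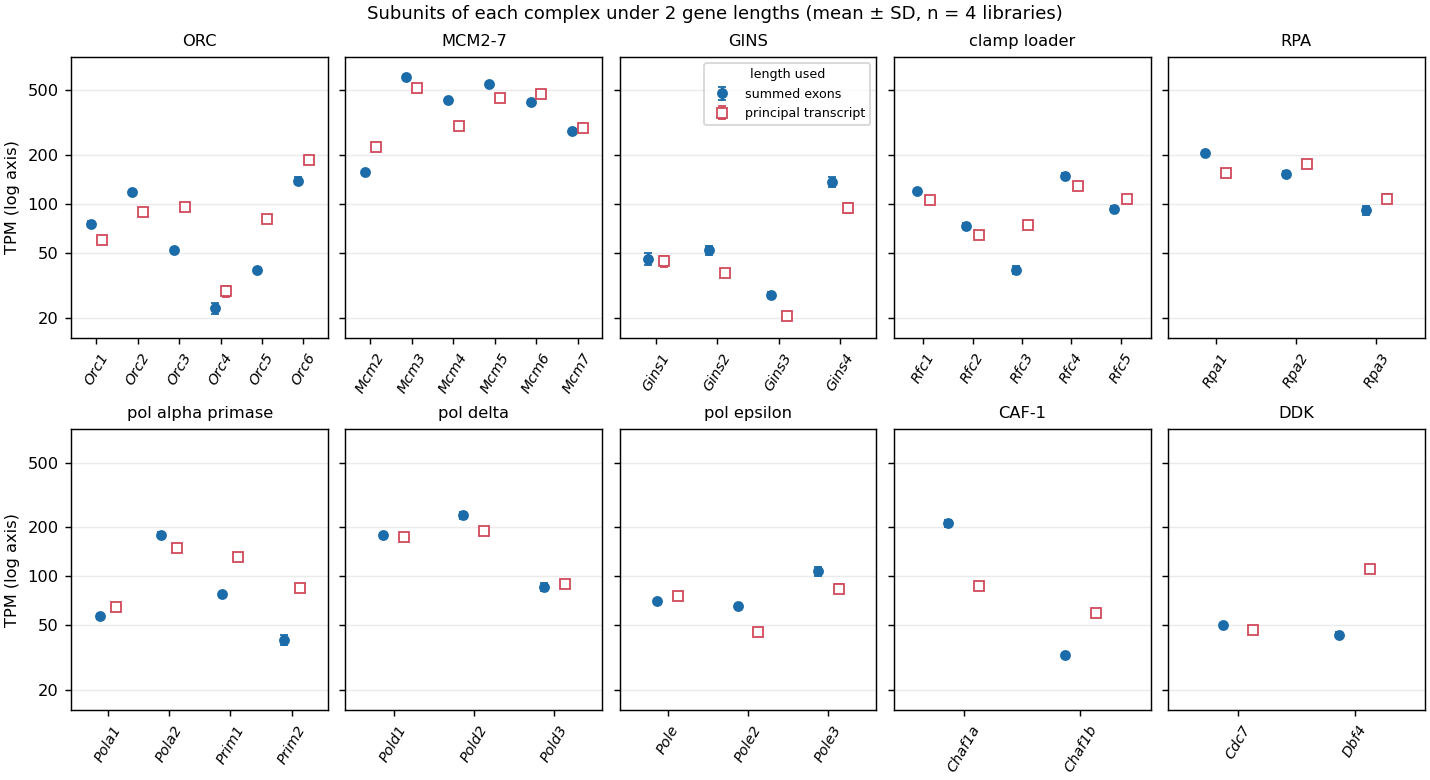
Mean TPM ± SD (log axis, n = 4 libraries) of the subunits of 10 complexes, computed with the summed exon length of the count files (filled circles) and with the length of the principal transcript (open squares). Orc4, Gins3 and Mcm2 stay lowest in their complexes under both lengths, while Dbf4 at 43.7 and 110 TPM and Chaf1a at 211 and 87.7 TPM move most; the principal transcript of Chaf1a is longer than the exons counted.

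Pcna, the sliding clamp that tethers the polymerases, was at 590, 528, 534 and 557 TPM, the second highest of the 50 genes. With principal transcript lengths it was the highest, at 606 TPM. Its values overlapped those of Mcm5 and stayed below Mcm3 in every library on the scale of summed exons. A processed copy, Pcna-ps2, matches 51.4% of the Pcna transcript at up to 99.2% identity and held 694 counts over the 4 libraries, so some reads may have been split between them. The 5 subunits of the clamp loader RFC, which opens the PCNA ring, were all well below it, summing to 475 ± 12 TPM (SD, n = 4). Rfc4 was the highest of them at 151, 156, 142 and 147 TPM, and Rfc3 the lowest at 42.2, 40.1, 37.0 and 37.9 TPM. All 10 pairs of RFC subunits kept one order in the 4 libraries, 8 of them in the same direction under both lengths. Rfc1, the large subunit, averaged 120 ± 2.8 TPM, Rfc5 93.0 ± 4.0 and Rfc2 73.5 ± 2.6 TPM (SD, n = 4). With principal transcript lengths Rfc2 was the lowest, at 64.4 TPM, and the mean of Rfc5 passed from below to above 100 TPM, at 108 TPM. Part of the Rfc5 transcript (36.5%) has a near copy in Gm12870.

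The RPA trimer, which coats single-stranded DNA, summed to 462, 445, 444 and 446 TPM. Rpa1, the largest subunit, was at 201, 201, 212 and 203 TPM and Rpa2 at 163, 152, 149 and 150 TPM. Rpa1 was the higher in each library by 1.34-fold, an order that turned round with principal transcript lengths. Rpa3, the smallest, was at 97.6, 92.1, 83.7 and 93.4 TPM. It was the lowest of the trimer in every library under both lengths.

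Summed over the listed subunits, polymerase delta stood at 501 ± 13 TPM, polymerase alpha with primase at 355 ± 5.3 and polymerase epsilon at 243 ± 8.6 TPM (SD, n = 4). The sums leave out Pold4 and Pole4, at 104.5 and 87.2 TPM, which are outside the list. They rest on summed exon lengths and would change with principal transcript lengths, where Prim2 was at 84.8 TPM. Polymerase alpha with primase starts each new strand with a short primer. Its regulatory subunit gene Pola2 was at 178, 183, 187 and 174 TPM, and the catalytic Pola1 at 53.9, 57.4, 58.6 and 56.7 TPM. Pola2 exceeded Pola1 by 3.19-fold in a comparison without overlap, and stayed above it with principal transcript lengths, at 149 against 64.8 TPM. The primase genes Prim1 and Prim2 averaged 77.7 ± 0.89 and 40.7 ± 2.6 TPM (SD, n = 4), and Prim1 was the higher in all 4 libraries under both lengths. With principal transcript lengths Prim1 lay above 100 TPM, at 132 TPM.

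Polymerase delta copies mainly the lagging strand and polymerase epsilon mainly the leading strand. Pold1, the catalytic subunit of delta, was at 169, 181, 179 and 184 TPM, and Pole, that of epsilon, at 67.3, 71.8, 72.6 and 69.3 TPM. Pold1 was the higher in every library, with a log2 difference of 1.34 ± 0.048 (SD, n = 4), or 2.54-fold, and it remained so with principal transcript lengths, at 174 against 76.0 TPM. The regulatory subunit Pold2 averaged 237 ± 11 TPM, above Pold1, and Pold3 averaged 86.1 ± 4.6 TPM. All 3 pairs of delta subunits kept one order under both lengths. Of the epsilon subunits, Pole2 averaged 65.9 ± 1.9 TPM and could not be told apart from Pole with summed exons. Pole2 was marginally higher in replicate 1 and Pole in the others. With principal transcript lengths Pole was the higher in all 4 libraries, by 1.67-fold, at 76.0 against 45.5 TPM. Pole3, a histone-fold subunit, was at 113, 114, 99.6 and 102 TPM. Its values lay around 100 TPM, and neither side of that threshold was called in limma's test (adjusted p = 0.29 for above).

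Fen1 and Lig1 finish the lagging strand, the first by trimming flaps and the second by sealing nicks. Fen1 was at 238, 239, 237 and 246 TPM, and Lig1 at 267, 274, 290 and 275 TPM. Lig1 was the higher in all 4 libraries by 1.15-fold, and this held with principal transcript lengths, at 258 for Lig1 and 170 TPM for Fen1. Most exon bases of Fen1 (84.2%) are overlapped on the opposite strand by Gm10143 and Tmem258. Top2a, the topoisomerase that separates sister DNA molecules and marks dividing cells, was at 306, 325, 342 and 326 TPM. Top1, which relaxes DNA ahead of the fork, was at 109.9, 99.9, 112 and 106 TPM. Top2a exceeded Top1 by 3.05-fold, and by 1.95-fold with principal transcript lengths, where Top1 was at 200.2 TPM. Top1 was not placed at 100 TPM (adjusted p = 0.147 in limma's test), and without replicate 2, its lowest library, it was called above (adjusted p = 0.0393).

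The chromatin assembly factor CAF-1 places histones on new DNA. Its large subunit gene Chaf1a was at 197, 222, 218 and 209 TPM and Chaf1b at 31.3, 32.9, 32.5 and 33.98 TPM. This 6.46-fold gap was the widest of the 69 pairs examined. With principal transcript lengths Chaf1a was at 87.7 and Chaf1b at 59.0 TPM, 1.49-fold apart in the same direction. The principal transcript of Chaf1a in the later annotation has 5535 bases, while the exons counted in the files span 3308, so this value divides by bases in which no reads were counted and understates Chaf1a. Wdhd1, also called AND-1, a scaffold that joins the helicase to polymerase alpha, was at 61.8, 60.6, 64.7 and 63.2 TPM. It lay close to Pola1, the catalytic gene of that polymerase, and above it in all 4 libraries.

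Over all 69 pairs of subunits or partners, 67 stood in one order with summed exons, 66 with principal transcripts, and 55 in the same order with both. Ordered by mean TPM, however, only 9 of the 49 neighbouring genes were separated in all 4 libraries by more than 2 SD. The steps that were separated included Mcm5 above Mcm4, Mcm6 above Top2a, Top2a above Mcm7 and Lig1 above Fen1, and 40 were not. The 6 highest genes were the same under both lengths, and 19 of the 24 genes above 100 TPM were called there with either. The order of the 50 genes under the 2 lengths had a rank correlation of 0.878, a description across genes that share the same counts.

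The replication genes varied little between the libraries. The SD of a gene's CPM over its mean ran from 0.759% (Mcm3) to 8.68% (Gins1), with a median of 3.57%. The median was 6.21% over the 13279 genes tested and 4.18% over the 7266 genes in the same range of CPM. The highest library exceeded the lowest by at most 1.21-fold for any of the 50 genes. In edgeR's goodness-of-fit test of variation beyond the trended dispersion, 0 of the 50 genes were called at an adjusted p under 0.05, against 0.422% of all genes tested (56 genes). With so low a share, 0 of 50 does not set these genes apart. At an unadjusted p under 0.05 the counts were 0 of 50 and 770 genes of all (5.8%), and DESeq2 size factors also gave 0 of 50. Replicate 1 was the highest library for 23 of the 50 genes, replicate 2 for 12, replicate 3 for 9 and replicate 4 for 6. The same count was not taken over all genes. In replicate 1 the median log2 deviation from a gene's mean was 0.0229 across the 50 genes and 0.00428 across all genes tested. In replicate 3, the deepest library, the deviation of a gene from its mean followed gene length, with a Spearman correlation of 0.607 across the 50 genes and 0.246 across all genes tested. In the other libraries that correlation lay between -0.362 and 0.024 across the 50 genes. These genes share a library, so the values are descriptions, and the part of length in the spread was not tested.

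**Figure D4:**
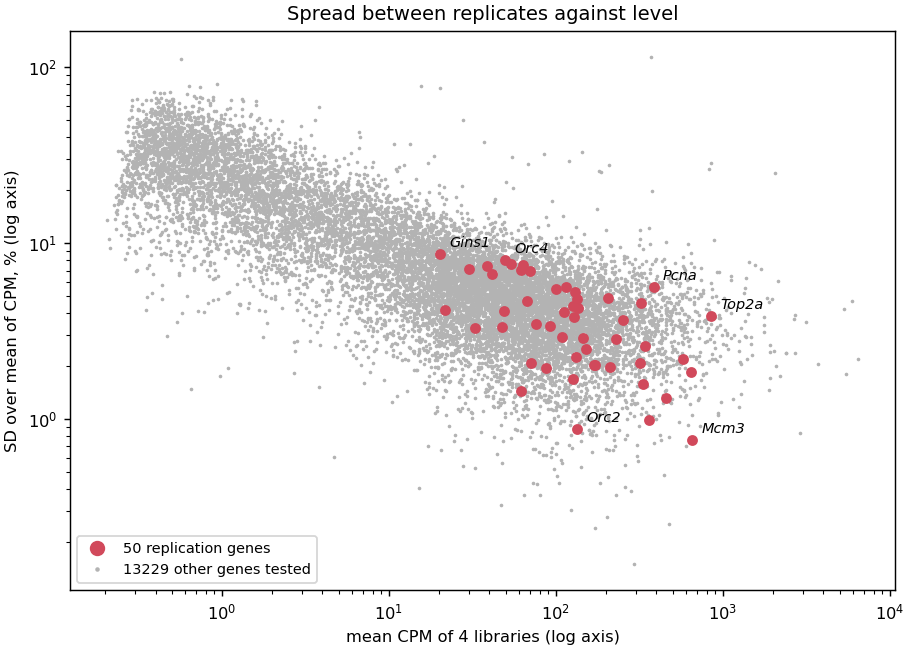
SD over the mean of CPM (%, log axis) against mean CPM (log axis) over the 4 libraries, for the 50 replication genes (red) and the 13229 other genes tested (grey). The replication genes sit inside the cloud of genes of like level, between Mcm3 at 0.759% and Gins1 at 8.68%.

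Outside the 50 genes, a list of 36 other replication and nucleotide supply genes was high as well. All 36 lay above 1 CPM, 34 above 10 TPM and 13 above 100 TPM, with a median of 78.2 TPM. Of all genes tested, 47.4%, 35.9% and 8.68% did so. The highest were Ssrp1, a subunit of the histone chaperone FACT, at 670 ± 16 TPM, Rrm2, the small subunit of ribonucleotide reductase, at 560 ± 11 TPM, Uhrf1, which guides maintenance of DNA methylation, at 369 ± 15 TPM, and Dut, the dUTPase, at 352 ± 18 TPM (SD, n = 4). Dscc1, a subunit of an alternative clamp loader, was below 10 TPM at 8.46 ± 0.36 TPM, and Rrm2b, the other small subunit of ribonucleotide reductase, was not placed, at 9.43 ± 0.47 TPM (SD, n = 4). The genes of DNA polymerases of damage bypass and repair, with the non-catalytic subunit gene Mad2l2, were lower. Of 13 such genes, 11 lay above 1 CPM and 0 above 100 TPM, with a median of 25.4 TPM. The 0 of 13 is near the 8.68% of all genes, and the median exceeds the 14.2 TPM of protein-coding genes. The highest were Polh at 87.7 ± 3.5, Poll at 55.8 ± 1.9, Polk at 44.2 ± 2.2 and Mad2l2 at 41.4 ± 1.3 TPM (SD, n = 4). Poln, at 0.15 CPM, and Dntt, the terminal transferase of developing lymphocytes, at 0.10 CPM, lay below 1 CPM, and Dntt had no count in replicate 2.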

How the data were processed

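RNA-seq counts of 4 libraries of mouse T cells were used, all of 1 group, with replicate numbers from the labels; the number in each file header equalled the label in 4 of 4. The authors deposited unnormalized counts: per the file headers, featureCounts 1.4.6-p4 assigned read pairs with both ends mapped to exons of GENCODE M13 under strand option 2, from alignments named for STAR (version not stated). The recorded command sets no option for counting multi-mapping or multi-overlapping reads. Per the labels, mm10 was the assembly. These labels speak of total RNA, the linked protocol of polyadenylated RNA.

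Symbols were matched for 50376 of 50600 genes (99.56%). CPM used the library total, TPM also the summed exon length in the files. Levels were tested on log2(value + 0.1) with limma 3.58.1 against 1 CPM, 10 TPM and 100 TPM. Variation was tested with edgeR 4.0.16 (TMM, filterByExpr), with DESeq2 1.42.0 as an alternative. Both were tested on simulated data first. Principal transcripts came from GENCODE M21, and near copies from blastn 2.17.0+. All 50 members are described; of the 2 other gene lists, the 4 highest and those not above 1 CPM are named, and Dscc1 and Rrm2b after their values were seen. Members and lists were chosen with earlier results of these data known. Since no label says that the replicates came from separate animals, p-values cover only the spread among these 4 libraries.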

Additional observations from a re-analysis of the deposited data

Results flagged for a closer look

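In 5 of 65 sets of 4 values looked at (the TPM of each gene and the summed TPM of complexes), 1 library lay far from the other 3, and chance alone flags about 1 in 20 such sets. Gins1 was at 51.6 TPM in replicate 1, against 43.4 to 44.8 TPM in the others. Gins2 was at 56.8 TPM in replicate 1, against 50.04 to 50.26 TPM. Prim2 was at 44.6 TPM in replicate 1, against 39.0 to 39.5 TPM. The summed RPA genes were at 462 TPM in replicate 1, against 444 to 446 TPM. Prim1 was at 76.4 TPM in replicate 3, against 78.1 to 78.3 TPM. None of these genes was called variable in edgeR's goodness-of-fit test.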

How the results depend on the processing

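Among the 50 genes, the counts past 1 CPM, 10 TPM and 100 TPM and of pairs in one order stayed within 1.5 times their value under each alternative run on them, and none was called variable under any. Without each replicate in turn, 24 to 25 genes lay above 100 TPM and 67 to 69 pairs stood in one order; with principal transcript lengths, an alternative chosen after seeing the data, these were 23 and 66, and by CPM 62 pairs. Of all genes, 56 were called variable, but 873 under the common dispersion and 33 to 40 without each replicate in turn. A filter on low counts took the share of all genes above 100 TPM to 15.4%, against 8.68%, since it leaves fewer genes. Principal lengths, given to all genes at once, took Gmnn, at 6.685, and Rfc1, at 6.72, out of the genes called above 100 TPM (6.64 on the log2 scale). They also rescale TPM: Mcm4 and Gins4, with unchanged lengths, were at 0.694 of their former TPM. Gmnn, Rfc1 and Orc2 fell although their principal transcripts are shorter than the exons counted. A crossing of 100 TPM therefore does not reflect a gene's own length alone. Principal lengths moved the mean log2 levels of 9 other genes across that threshold, whether or not a call changed. Orc2 was then at 6.49, Gins4 at 6.57, Chaf1a at 6.45 (understated, as its principal transcript exceeds the exons counted) and Pole3 at 6.39, below it, and Cdc6 at 6.66, Dbf4 at 6.79, Rfc5 at 6.75, Rpa3 at 6.75 and Prim1 at 7.04, above it. They also turned 9 pairs, whose log2 differences became -0.67 (Orc1 minus Orc3), -0.41 (Orc1 minus Orc5), -0.098 (Orc2 minus Orc3), -0.066 (Mcm5 minus Mcm6), 0.24 (Gins1 minus Gins2), -0.22 (Rfc2 minus Rfc3), -0.17 (Rpa1 minus Rpa2), -0.39 (Pola1 minus Prim2) and -1.24 (Cdc7 minus Dbf4). By CPM, 10 pairs turned, to -0.28 (Orc1 minus Orc3), 0.42 (Orc2 minus Orc6), 1.66 (Rfc1 minus Rfc4), 1.02 (Rfc2 minus Rfc4), -0.92 (Rfc4 minus Rfc5), 0.73 (Pola1 minus Prim1), 0.95 (Pold1 minus Pold2), 1.85 (Pole minus Pole3), 0.45 (Mcm10 minus Cdc45) and -0.86 (Cdc7 minus Dbf4). These turns follow from the lengths alone, since the counts are the same. No paired analysis was possible because the labels give 1 group.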
